A study of Mus musculus with 15 samples.

Results

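Dense clusters of PU.1 sites in mouse macrophages were chains of at least 4 bound regions on an autosome, each separated from the next by at most 10 kb. The regions were chosen by the control libraries alone: peaks of the 2 control lists that shared at least 1 bp were merged, and a region was kept where both libraries had a peak. On the autosomes 21627 control regions were found, and 348 more lay on the sex chromosomes and were not chained. Of the autosomal regions, 2314 (10.7%) fell into 484 dense chains, 11568 stood alone, 5480 lay in 2740 chains of 2 and 2265 in 755 chains of 3. All positions below are in mouse build mm9 and count from 1.

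PU.1 is a transcription factor of the ETS family that binds purine-rich DNA and is needed for the development of macrophages. It is known to bind a large number of enhancers in these cells, where it opens chromatin together with other lineage factors such as C/EBP and AP-1 proteins. Several PU.1 sites within a short stretch of DNA are a familiar feature of the control regions of macrophage genes.

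The cells were primary bone marrow-derived macrophages of C57BL/6 mice on day 7 of differentiation. They carried an inducible retroviral vector with either the hairpin shPU.1, directed at PU.1, or an sh-Renilla hairpin (labelled empty), which served as the control. Per the labels' protocols, both groups were selected with puromycin at 3 µg/ml from day 3 and their hairpins were induced with doxycycline at 0.5 µg/ml for 48 hours from day 5. PU.1 was mapped by chromatin immunoprecipitation and sequencing (ChIP) in 2 libraries of each group. A further list came from nucleosomes assembled in vitro on naked macrophage DNA, bound with nuclear extract: it holds the peaks of an IgG-depleted extract called against a PU.1-depleted one. The labels do not say whether replicates came from separate mice or cultures, so the spread between them may be technical. The level of PU.1 left under the hairpin is not analysed here.

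The control lists held 30026 and 36759 peaks, the shPU.1 lists 15122 and 27733, and the in vitro list 57512. How deeply each library was sequenced is unknown, and a shallower library gives fewer peaks at the same threshold. Median peak width was 435 bp and 448 bp in the control and shPU.1 libraries of replicate 1, and 892 bp and 1076 bp in those of replicate 2, so a broad replicate 2 peak can lie over several regions at once. Among the dense regions with a peak in shPU.1 replicate 2, 208 of 1604 (13.0%) shared that peak with a neighbour. The same was true of 4 of 1075 (0.372%) in shPU.1 replicate 1 and of 20 of 566 (3.53%) in the in vitro list.

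Most dense chains were small. There were 274 chains of 4 regions, 124 of 5, 46 of 6 and 40 of 7 to 12. The median dense chain spanned 20119 bp (quartiles 15407 and 24732 bp, range 4617 to 68410 bp). Regions covered a median of 29.3% of that span, or 2.29 regions per 10 kb. Neighbouring regions inside a chain were a median of 3467.5 bp apart over 1830 gaps, and 390 gaps (21.3%) were of at most 1000 bp. The dense chains together spanned 10.2 Mb, which is 0.412% of the autosomes. These values follow from the rule that chose the chains and carry no test.

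The limits of 10 kb and 4 regions marked no break in the data. There were 108 gaps above 9000 bp, in 98 of the dense chains, and 45 dense chains had the next control region only 10 to 11 kb away. The nearest region outside a dense chain was a median of 19489.5 bp away. Chains of 3, just outside the rule, spanned a median of 11848 bp, against 17713 bp for chains of 4, just inside. In both, the shPU.1 lists and the in vitro list had a peak at a like share of regions. Replicate 1 of shPU.1 had one at 47.3% and 47.8% of them, replicate 2 at 68.8% and 72.1%, and the in vitro list at 26.9% and 27.6%.

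**Figure D1:**
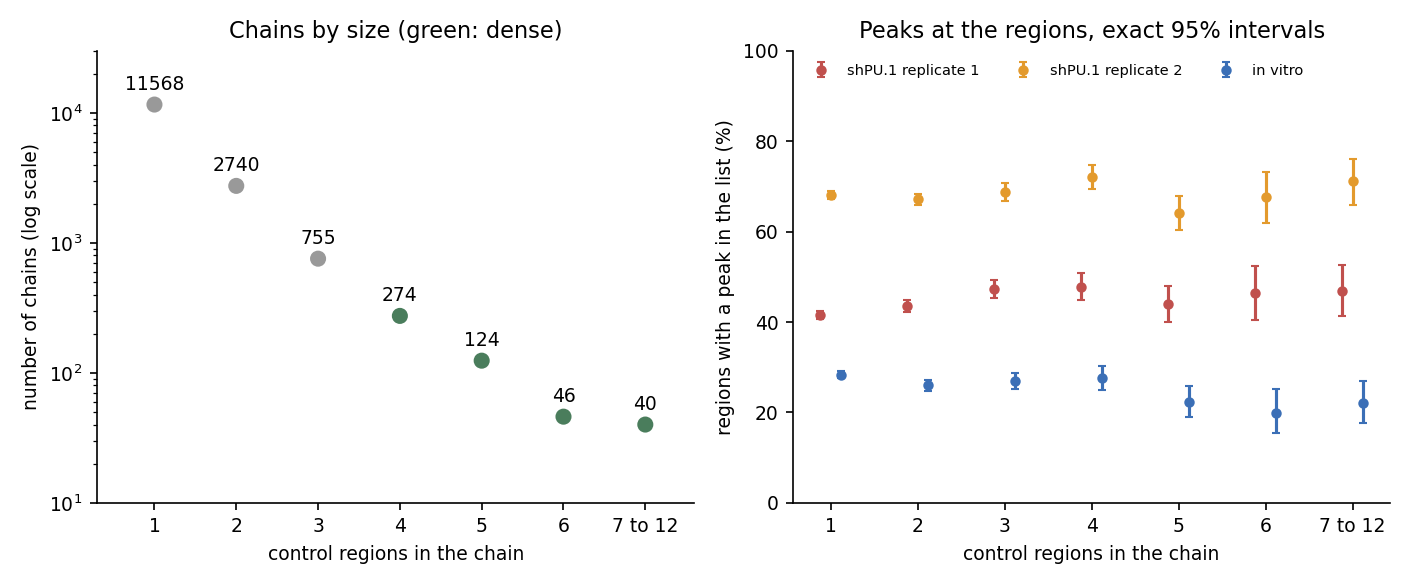
Left, the number of chains (vertical axis, log scale) by the number of control regions in them. Right, the percentage of regions with a peak in each shPU.1 list and in the in vitro list, by the size of their chain, with exact 95% intervals. Chains fall in number from 11568 single regions to 40 chains of 7 to 12, and the in vitro share lies at 28.3% in single regions and between 19.9% and 22.3% in chains of 5 and more.

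Dense chains were spread over all 19 autosomes, but unevenly. Chromosome 7 had the highest share of its control regions in dense chains, at 15.3% (exact 95% interval 13.4% to 17.2%, 45 chains), followed by chromosome 11 at 14.1% (12.4% to 15.8%, 50 chains). Chromosome 13 had the lowest share, at 4.03% (2.86% to 5.52%, 8 chains). These intervals count regions as independent, although all regions of a chain are dense together, so they are likely too narrow. Chromosome 11 was also the most densely bound autosome, with 14.1 control regions per Mb, whereas chromosomes 13 and 7 had 7.62 and 9.32. Chromosomes 7 and 11 thus changed places between dense share and bound regions per Mb, but their intervals for dense share overlapped. Of the chromosomes named here, chromosome 13 was the lowest on both measures.

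Most dense chains lay far from the next one, and a minority lay near another. Successive dense chains on a chromosome were a median of 1430642 bp apart, and 50 of the 465 distances were at most 100 kb and 26 at most 50 kb. Joining chains at most 100 kb apart left 393 chains alone and gave 34 pairs, 5 groups of 3 and 2 groups of 4. One group of 4 lay at chr1:192933566-193152355, where 18 regions included 7 with a peak in shPU.1 replicate 1, 10 in shPU.1 replicate 2 and 5 in the in vitro list. The other lay at chr7:87158453-87355392, with 21 regions, of which 11, 16 and 8 had such peaks.

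Within a chain, strong and weak regions stood side by side. Regions were ranked by averaging the percentiles of their peak scores within the 2 control lists, so that 100 is the highest possible rank. The best and the worst region of a dense chain differed by a median of 54.8 points of rank (range 6.06 to 96.5). The mean rank of a chain had a median of 63.3 and ranged from 31.8 to 90.2. Across all dense regions the median rank was 65.3, against 60.4 for single regions, and 13.1% of dense regions but 8.91% of single ones were in the top decile of all autosomal control regions. Dense regions were also wider, at a median of 1150.5 bp against 983 bp, and 232 of them (10.0%) held more than 1 peak of control replicate 1, against 5.51% of single regions. Control rank and width come from the lists that chose the regions and are a description.

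The chain with the highest mean rank (90.2) lay at chr11:115553692-115574656 and had 4 regions. Their percentiles were 98.2, 88.3, 78.2 and 93.1 in control replicate 1 and 97.5, 88.3, 83.9 and 94.4 in control replicate 2. All 4 had a peak in shPU.1 replicate 2, at percentiles of 99.5, 75.6, 39.7 and 79.7 of that list, and 3 had a peak in shPU.1 replicate 1, at 95.9, 73.1 and 74.8. The region without one there was the weakest of the 4 in both controls. In vitro peaks lay at 3 regions, at percentiles of 56.7, 77.1 and 45.4, and not at the first region, the strongest in all 4 ChIP lists from cells.

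The largest dense chains had 12 regions. In the first, at chr1:89516274-89556569 (40296 bp), the regions ranged in rank from 29.7 to 97.6. A peak was present at 7 of the 12 in shPU.1 replicate 1, at 10 in replicate 2 and at 6 in the in vitro list, and 1 region was without a peak in both shPU.1 lists. In this chain single shPU.1 replicate 2 peaks lay over several regions: 7 peaks accounted for the 10 detected regions. In the second, at chr11:114738335-114789068 (50734 bp), ranks ran from 25.9 to 99.6. There shPU.1 replicate 1 had a peak at 5 regions, replicate 2 at 9 and the in vitro list at 6, and 3 regions had no peak in either shPU.1 list. The region of highest rank in this chain, chr11:114750812-114752442, kept a peak in both shPU.1 lists, at percentiles of 94.7 and 97.2.

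Chains of 11 regions lay at chr15:78401656-78439694, chr5:124450935-124510244 and chr6:113579797-113648206. The last was the longest dense chain, at 68410 bp. In these 3 chains shPU.1 replicate 1 had a peak at 5, 7 and 3 regions, and shPU.1 replicate 2 at 7, 10 and 10. The in vitro list had a peak at 1, 1 and 2 of their regions. On chromosome 15 the 4 regions with percentiles above 80 in both controls that lay next to each other, from chr15:78419063 to chr15:78430763, all had a peak in both shPU.1 lists. The shortest dense chain, chr3:93247179-93251795, packed 4 regions into 4617 bp with gaps of 24 to 229 bp. None of its regions had a peak in shPU.1 replicate 1 and 3 did in replicate 2, under 2 peaks.

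**Figure D2:**
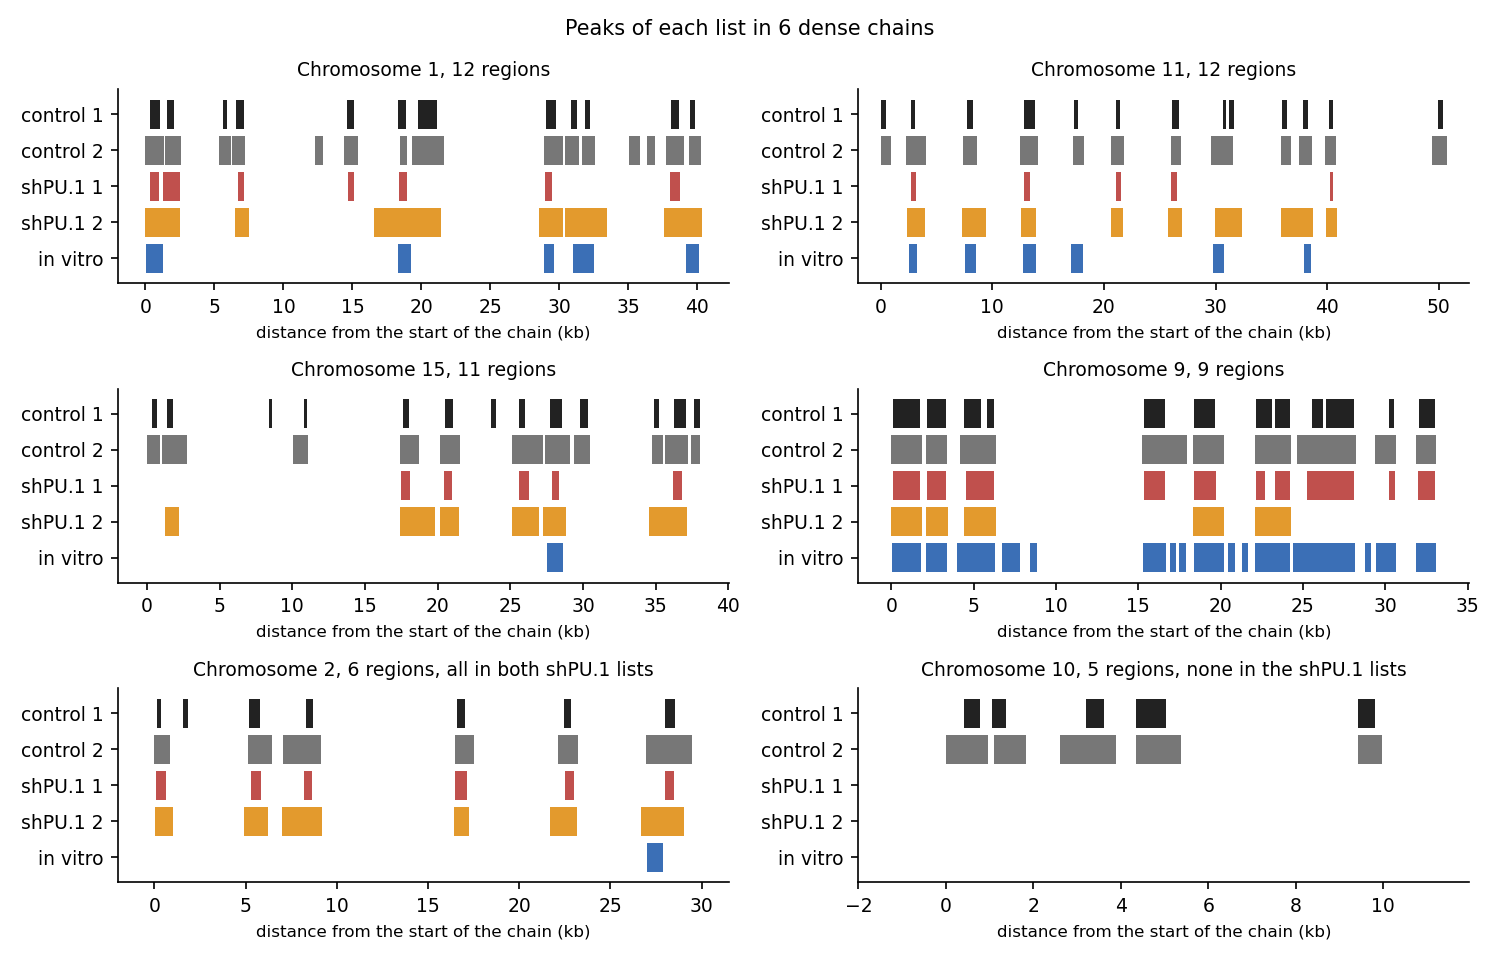
Peaks of the 2 control, 2 shPU.1 and in vitro lists (bars, to scale) against the distance from the start of the chain in kb, for 6 dense chains. The chromosome 2 chain has a peak of both shPU.1 lists at all 6 regions, the chromosome 10 chain has none at its 5, and the chromosome 9 chain, which stands apart in its in vitro scores, has an in vitro peak at all 9.

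Detection under the hairpin differed by a few percentage points between dense and single regions in the lists as deposited. In shPU.1 replicate 1 a peak was present at 1075 of 2314 dense regions, 46.5% (exact 95% interval 44.4% to 48.5%), against 41.5% (40.6% to 42.4%) of single regions and 43.2% of all autosomal control regions. In shPU.1 replicate 2 it was present at 1604, 69.3% (67.4% to 71.2%), against 68.1% (67.2% to 68.9%) of single regions and 68.0% of all. The mean over both libraries was 57.9% ± 16.2 in dense and 54.8% ± 18.8 in single regions (SD, n = 2), and the difference within a library was 3.08 ± 2.59 percentage points. The gap between the 2 libraries was far larger than the gap between dense and single regions. Such intervals cover the counting of regions within a library only, since regions are not replicates.

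A peak in both shPU.1 lists was found at 996 dense regions, 43.0%, against 38.3% of single and 39.8% of all regions. A peak in neither was recorded at 631, 27.3%, against 28.7% of single and 28.6% of all regions. All these shares lay close to the background.

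The difference between dense and single regions shrank once control rank was in the fit. A logistic regression over all 21627 regions, with the decile of control rank as covariate and errors clustered by chain, gave a log2 odds ratio of 0.08 (95% interval -0.07 to 0.23) for a peak in shPU.1 replicate 1, dense against single. Without the covariate it was 0.29 (0.16 to 0.42). For shPU.1 replicate 2 it was -0.12 (-0.28 to 0.04) with the covariate and 0.08 (-0.06 to 0.23) without. With rank in the fit neither interval excluded 0, and the odds ratio that each allowed ran from 0.955 to 1.17 in replicate 1 and from 0.822 to 1.03 in replicate 2. Values for both lists at once (0.06, -0.09 to 0.21) and for neither (0.10, -0.07 to 0.27) were of like size. Both calls depended on the choices made. In replicate 1, region width as a further covariate gave 0.15 (0.0026 to 0.30) and chains built on control replicate 2 alone gave 0.18 (0.07 to 0.28). In replicate 2, detection at dense regions was lower with peaks trimmed to 200 bp (-0.69, -0.93 to -0.44), in chains of 5 or more (-0.30, -0.52 to -0.08) and with gaps of up to 20 kb (-0.15, -0.28 to -0.03), and higher with chains built on control replicate 1 alone (0.19, 0.08 to 0.31).

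Deciles of rank showed a crossing pattern in both shPU.1 lists. Dense regions had a peak less often than single regions in the lowest decile, at 7.94% against 12.8% in shPU.1 replicate 1 and 25.7% against 35.2% in replicate 2. They had one more often in decile 9, at 81.4% against 71.6% and 94.5% against 89.9%. In the highest decile the shares lay closer, at 87.4% against 85.2% and 98.0% against 96.6%. In each list the dense share was the higher in 5 of the 10 deciles. The difference in slope was not tested.

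**Figure D3:**
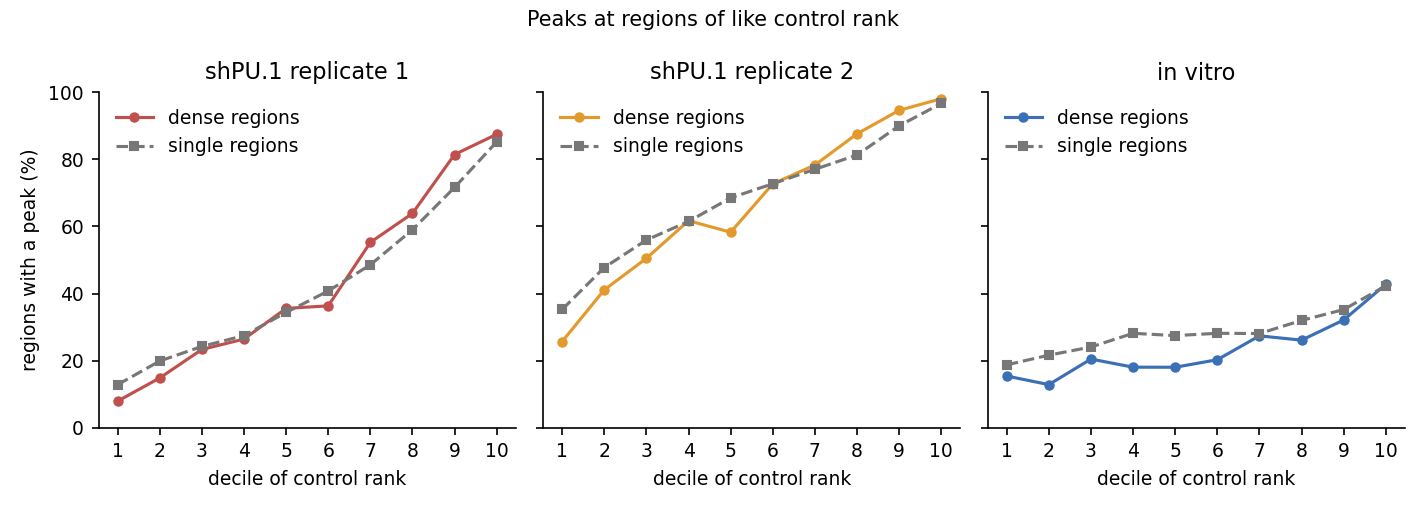
Percentage of regions with a peak (vertical axis) by decile of control rank (horizontal axis, 10 the highest) for dense regions (solid) and single regions (dashed), in shPU.1 replicate 1, shPU.1 replicate 2 and the in vitro list. The shPU.1 lines rise steeply and cross, whereas the in vitro line of dense regions lies below that of single regions in 9 of 10 deciles.

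The in vitro list had a peak at a lower share of dense than of single regions, but chains of 4 lay close to single regions. An in vitro peak lay at 566 dense regions, 24.5% (exact 95% interval 22.7% to 26.3%), against 28.3% (27.5% to 29.2%) of single regions and 27.2% of all autosomal control regions. The log2 odds ratio was -0.38 (95% interval -0.55 to -0.22) with rank as covariate, an odds ratio of 0.766, and -0.29 (-0.45 to -0.13) without it. Dense regions were lower in 9 of 10 deciles of rank. In decile 4, for example, 18.1% of dense and 28.1% of single regions had an in vitro peak, while in the highest decile the shares were 42.7% and 42.3%. By size, the share was 27.6% in chains of 4, 22.3% in chains of 5, 19.9% in chains of 6 and 22.0% in chains of 7 to 12. Trimming every peak to its central 200 bp left -0.28 with an interval that included 0 (-0.57 to 0.0032).

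The spans of dense chains made up 0.412% of the autosomes and held a larger share than that of the in vitro list. Dense spans held 675 in vitro peaks, 1.20% of that list's autosomal peaks, and 108 of these (16.0%) lay off the control regions. They held 9.08% and 7.03% of the control peaks, a value set by the rule, and 7.82% and 5.80% of the shPU.1 peaks. The mean share was 8.05% ± 1.45 in control and 6.81% ± 1.43 in shPU.1 (SD, n = 2), a difference of -1.25 percentage points. An exact two-sided permutation test over libraries gave p = 0.667, with 0.33 the smallest p possible. Since the control lists set the spans, the test cannot decide, and these values only stand side by side.

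Space between the regions of a dense chain held more peaks found in only 1 control library than the rest of the autosomes. Off the control regions, control replicate 1 had 15.1 peaks per Mb in the gaps of dense chains, 9.41 within 50 kb on either side and 2.59 over the autosomes. Control replicate 2 had 28.9, 19.8 and 5.85. In shPU.1 replicate 1 the values were 5.45, 4.74 and 2.14. In shPU.1 replicate 2 they were 8.38 in the gaps, 10.5 in the flanks and 5.20 over the autosomes. The in vitro list had 15.1 peaks per Mb in the gaps, 18.7 beside the chains and 20.6 over the autosomes. A peak that touched a control region was not counted, and gaps had a median of only 3467.5 bp. Wide peaks therefore had less room in the gaps (median width 846 bp in vitro and 1076 bp in shPU.1 replicate 2). No correction for peak width was made, so a lower value in the gaps cannot be read as depletion. These densities were not tested, and the control values share their lists with the rule.

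Regions with an in vitro peak were detected more often under the hairpin, in dense chains as elsewhere. Of the 566 dense regions with one, 63.4% (exact 95% interval 59.3% to 67.4%) had a peak in shPU.1 replicate 1 and 83.9% (80.6% to 86.9%) in replicate 2. Of the 1748 without one, 41.0% (38.6% to 43.3%) and 64.6% (62.3% to 66.8%) did. Single regions gave 56.5% and 83.5% with an in vitro peak and 35.6% and 62.0% without. Dense regions with an in vitro peak also ranked higher in the controls, at a median of 76.3 against 61.6, and the part of rank in this difference was not tested.

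Seen by outcome, an in vitro peak lay at 34.7% of the 996 dense regions with a peak in both shPU.1 lists and at 12.4% of the 631 with a peak in neither. The 608 dense regions detected in replicate 2 alone lay between these values, at 21.2%. The 79 detected in replicate 1 alone gave 16.5%. Median control rank moved alongside, at 83.9, 42.4, 59.2 and 54.7. Single regions showed the same order, with an in vitro peak at 40.2%, 14.1%, 27.8% and 19.3% of these 4 classes.

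Few dense chains had a peak at all or at none of their regions. All regions had a peak in shPU.1 replicate 1 in 17 of the 484 chains (3.51%), in replicate 2 in 96 (19.8%) and in both lists in 10 (2.07%). No region had a peak in replicate 1 in 26 chains (5.37%), in replicate 2 in 4 (0.826%) and in either list in 3 (0.620%). In 338 chains (69.8%) at least 1 region had a peak in both shPU.1 lists and at least 1 had a peak in neither. Replicate 1 had a peak at 46.5% of dense regions and replicate 2 at 69.3%, against 41.5% and 68.1% of single regions. With such shares, many chains of 4 or more regions are mixed even where regions are independent of each other. The number of mixed chains expected was not computed. Replicate 2 detected more regions than replicate 1 in 345 chains and fewer in 21.

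Among the chains kept whole, the largest had 6 regions and lay at chr2:6171976-6201472. Its lowest-ranked region stood at 27.9, so a weak control site there had a peak in both shPU.1 lists. Chains of 5 at chr14:31432998-31455535 and chr3:79647601-79669692 were also kept whole, with mean ranks of 84.7 and 74.7. The 3 chains without a peak in either list lay at chr10:80867144-80877108 (5 regions, mean rank 36.2), chr3:89221635-89241747 (4 regions, 58.1) and chr9:37337531-37359858 (4 regions, 37.4). The chain on chromosome 3 had a region of rank 87.2, which is above most control regions, and in vitro peaks at 2 of its 4 regions.

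Order by rank within a chain went with detection. In the 274 chains of 4, the regions had median ranks of 90.0, 75.3, 55.4 and 35.5 from the highest to the lowest. A peak in shPU.1 replicate 1 was present at 78.8%, 60.9%, 33.6% and 17.9% of them, and in replicate 2 at 93.4%, 85.4%, 68.6% and 40.9%. Single regions rose with control rank in the same way, from 12.8% in the lowest decile to 85.2% in the highest in replicate 1 and from 35.2% to 96.6% in replicate 2. The in vitro share in the chains of 4 went from 35.0% and 34.3% to 23.0% and 17.9%. In these chains 13 had a peak of shPU.1 replicate 1 at all 4 regions, 99 at 2 and 18 at none. Over all 484 chains, 93.4% of highest-ranked regions and 40.5% of lowest-ranked regions had a peak in shPU.1 replicate 2, and 78.9% and 18.2% in replicate 1. Of the lowest-ranked regions, 258 (53.3%) had a peak in neither list.

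**Figure D4:**
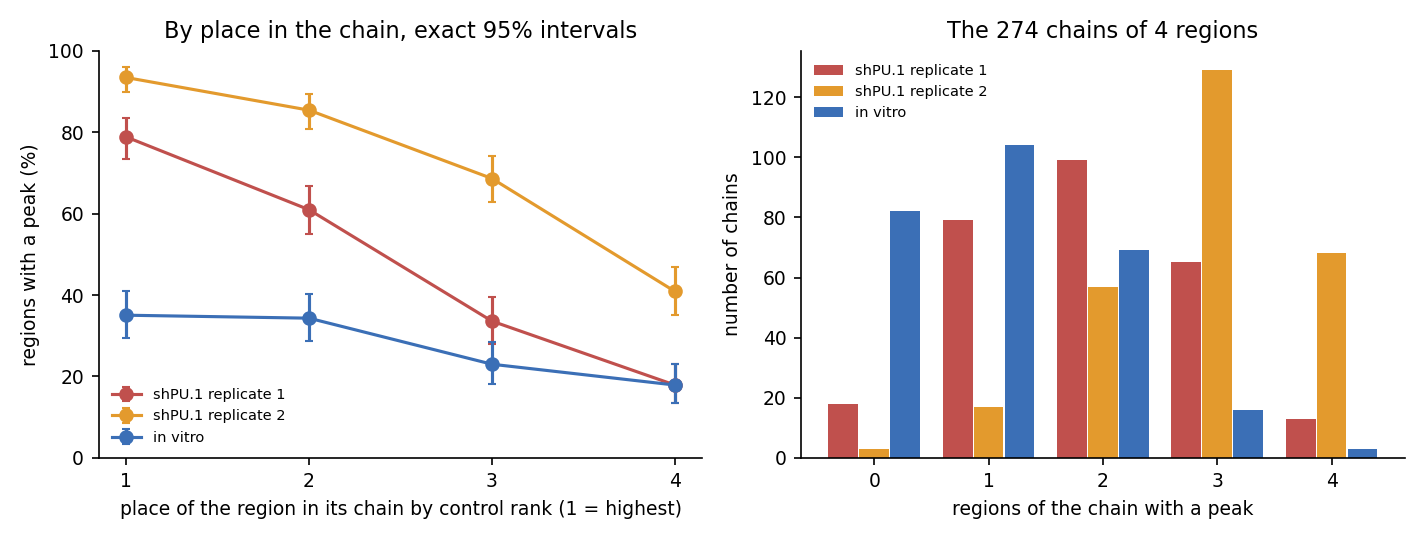
Left, the percentage of regions with a peak by their place in the chain (1 the highest control rank), for the 274 chains of 4 regions, with exact 95% intervals. Right, the number of these chains (bars) by how many of their 4 regions had a peak in each list; 3 of 4 was the commonest outcome in shPU.1 replicate 2, 2 of 4 in replicate 1 and 1 of 4 in vitro.

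Regions at the edge of a chain and inside it had like shares. The 968 outermost regions and the 1346 inner ones had a peak in shPU.1 replicate 1 at 44.7% and 47.7%, and in replicate 2 at 69.2% and 69.4%, with median ranks of 64.0 and 66.2. In vitro the exact 95% intervals were 21.0% to 26.5% at the edge and 22.7% to 27.4% inside. The intervals of edge and inner regions overlapped in each of the 3 lists.

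Detection of a region was also compared with that of its left neighbour in the chain. Where the left neighbour in the chain had a peak in shPU.1 replicate 1, 47.2% of regions did (862 pairs), and where it had none 46.3% did (968 pairs). In replicate 2 the shares were 71.4% and 64.2%, and 68.8% and 64.2% once pairs under 1 peak were left out. In vitro they were 31.7% and 22.4%, and 30.2% and 22.4% without such pairs. Leaving out such pairs could only lower the first share, since both of their regions had a peak. The lower values are therefore not a correction for shared peaks. Whether the lists differ in the shares by left neighbour was not tested.

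In vitro peaks lay in many of the dense chains, where 24.5% of regions had one against 28.3% of single regions. The number of chains expected from the share of 24.5% was not computed. No region had one in 142 chains (29.3%), 1 region in 179 (37.0%), 2 or more in 163 (33.7%) and every region in 4 (0.826%). The whole span was free of in vitro peaks in 122 chains. In chains with none, 1, or 2 and more such regions, shPU.1 replicate 1 had a peak at 39.2%, 45.7% and 53.2% of regions and replicate 2 at 63.5%, 69.7% and 73.7%. The median of the chains' mean ranks was 61.3, 61.2 and 65.6.

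One chain stood apart. At chr9:2999810-3032920, where the assembled sequence of chromosome 9 begins, all 9 regions had an in vitro peak with a score of 3100, a level reached by 57 in vitro peaks in all. No dense region elsewhere had such a peak, and 13 single regions did. All 9 regions had a peak in shPU.1 replicate 1 and 5 had one in replicate 2, one of 21 chains in which replicate 1 detected more. Its span held 16 in vitro peaks for its 9 regions. Whether it lies in repeated sequence, which can raise peak scores in any list, was not tested, so its peaks may not all mark PU.1 binding. Its control percentiles ran from 52.2 to 98.9 in replicate 1 and from 26.4 to 92.3 in replicate 2. Without this chain the log2 odds ratios, dense against single, were 0.07 for shPU.1 replicate 1, -0.11 for replicate 2 and -0.41 in vitro, over 483 chains.

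A replicate that took no part in choosing the chains gave a measure for the control itself. Chains were built by the same rule on 1 control library alone and read in the other control library and in both shPU.1 libraries. Dense regions of a control library were found again in the other control more often than single regions of like rank, and in the lists as deposited this excess was smaller under shPU.1. From control replicate 1 there were 994 dense chains with 5056 of 29547 regions. The other control had a peak at 84.0% of dense and 75.4% of single regions (78.6% of all), shPU.1 replicate 1 at 36.0% and 31.9% (33.2% of all) and shPU.1 replicate 2 at 59.6% and 54.6% (56.3% of all). With rank as covariate the log2 odds ratios, dense against single, were 0.76 (95% interval 0.61 to 0.90), 0.11 (-0.01 to 0.22) and 0.19 (0.08 to 0.31).

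From control replicate 2 there were 1364 dense chains with 7016 of 36031 regions. The other control had a peak at 66.5% of dense and 56.1% of single regions (60.3% of all), shPU.1 replicate 1 at 34.4% and 27.2% (30.0% of all) and shPU.1 replicate 2 at 56.9% and 53.0% (54.1% of all). The log2 odds ratios were 0.47 (0.36 to 0.58), 0.18 (0.07 to 0.28) and -0.09 (-0.19 to 0.01). The in vitro list again had fewer peaks at dense regions, with -0.44 (-0.57 to -0.30) for chains from control replicate 1 and -0.68 (-0.78 to -0.58) for those from control replicate 2.

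The difference between the other control and the mean of the shPU.1 lists was tested in a joint fit. It was 0.61 on the log2 scale (95% interval 0.46 to 0.75) for chains from control replicate 1 and 0.43 (0.30 to 0.55) for those from control replicate 2. The direction did not hold under every treatment of the peaks. With all lists cut to the 15122 best peaks it was 0.63 (0.32 to 0.93) and 0.17 (-0.17 to 0.51), and with peaks trimmed to 200 bp it was -0.34 (-0.46 to -0.22) and 0.31 (0.20 to 0.42). Each comparison rests on 1 control library as readout, so it has no spread over control libraries.

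**Figure D5:**
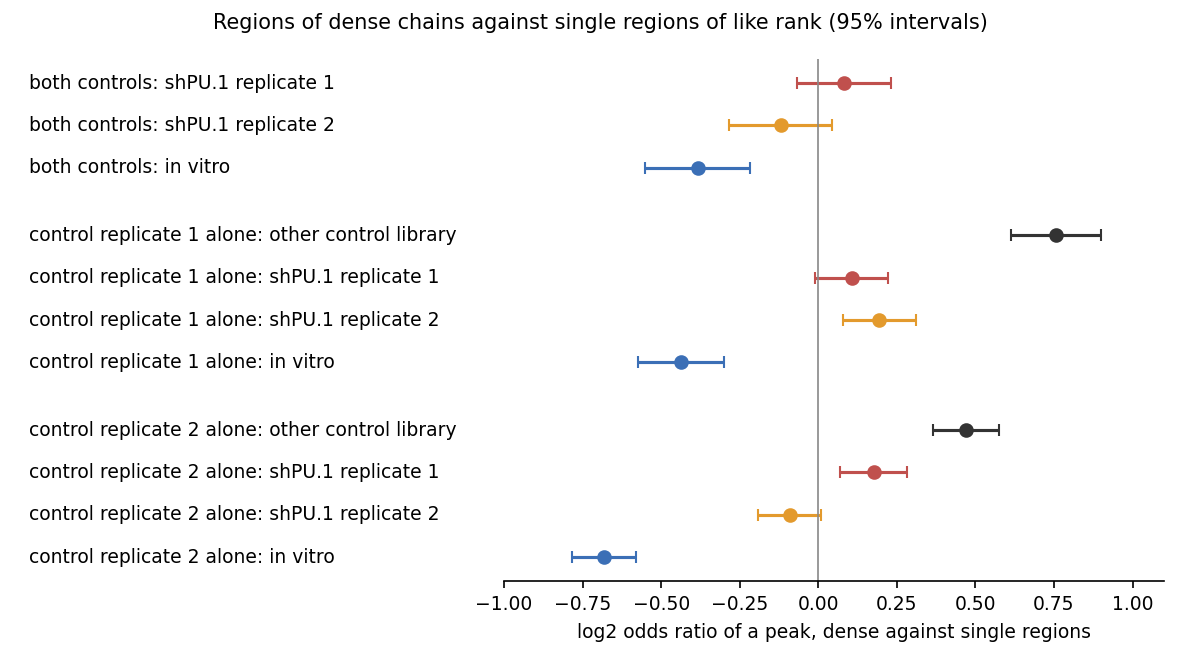
Log2 odds ratio of a peak at dense against single regions of like rank (points, with 95% intervals), for chains built on both controls and on each control library alone. In vitro points lie below 0 in each of the 3 sets of chains, and the other control library lies above both shPU.1 lists in both sets that allow it.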

How the data were processed

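Peak lists of PU.1 ChIP in 4 macrophage libraries and of 1 pair of in vitro libraries were analysed; 9 MNase samples of the 15 were not. Per the submitters' processing notes the authors used Bowtie 0.12.7, MACS 1.4 and build mm9; their settings were not stated. The deposited peak score ranked or filtered peaks within a list only, and the lowest in any list was 50. Lists were made per library, except the in vitro list. Control regions, chains and ranks were defined as in the report, and a region was detected where a list had a peak over at least 1 bp. Shares carry exact (Clopper-Pearson) 95% intervals. Odds ratios came from logistic regressions across all regions (statsmodels 0.14.6, Python 3.11.15) with chain-clustered errors, tested on simulated data. Log2 odds ratios were called where the 95% interval excluded 0. Members, lists and alternatives were chosen with earlier results of these data known. Named chains were the 5 with most regions, the 5 of highest mean rank, the 3 largest with every region in both shPU.1 lists, the 3 largest with none, the 3 with most in vitro regions, the longest and the shortest. Groups of chains, and single regions set apart within a chain, were chosen after their values were seen. Replicate numbers were not treated as pairs: the labels name no shared mouse or day, and the differences between replicates correlated by 0.100 over 8603 regions. Median peak width did follow replicate number in both groups, and results with replicate number as a block are given below. Alternatives were other gaps, chain sizes, score minimum, peak widths, list lengths, overlaps, covariates and omitted libraries. Leaving out the chromosome 9 chain, width and chromosome as covariates, and the alternatives of the chains from 1 control were added after seeing the data. Gene names and sequences were not used here.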

Additional observations from a re-analysis of the deposited data

Results flagged for a closer look

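Chains built on 1 control library showed a different excess of dense over single regions in the other control than in each shPU.1 list, by a test of the difference itself. Each difference set 1 control library against 1 shPU.1 library. Its interval covers the counting of regions only and holds no spread between libraries, so an effect of the hairpin cannot be told apart from a difference between libraries. On the log2 odds ratio scale, for chains from control replicate 1 the difference was 0.65 (95% interval 0.48 to 0.82) against shPU.1 replicate 1 and 0.56 (0.41 to 0.71) against shPU.1 replicate 2. For chains from control replicate 2 it was 0.29 (0.15 to 0.44) against shPU.1 replicate 1 and 0.56 (0.42 to 0.70) against shPU.1 replicate 2. With all lists at the length of the shortest, the first pair was 0.79 (0.43 to 1.14) and 0.47 (0.16 to 0.78), while the second was 0.22 (-0.13 to 0.56) and 0.13 (-0.25 to 0.50), with intervals that include 0. With peaks trimmed to 200 bp, the difference from the mean of the shPU.1 lists was -0.34 (-0.46 to -0.22) for chains from control replicate 1, the opposite direction, and 0.31 (0.20 to 0.42) for those from control replicate 2. The differences therefore changed with peak width and, for chains from control replicate 2, with list length.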

How the results depend on the processing

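The number of dense chains followed the rule and the lists. It was 181 with gaps of at most 5 kb, 1054 with 20 kb, 1239 with 3 or more regions, 210 with 5 or more, 105 at a minimum score of 100, 162 with peaks trimmed to 200 bp, 78 with lists of equal length, and 994 to 1364 with 1 control library left out. For shPU.1 replicate 1 the log2 odds ratio, dense against single, was -0.053 with gaps of 5 kb and -0.083 at a minimum score of 100, and its interval excluded 0 with 3 or more regions (0.14), without rank (0.29), with width as covariate (0.15) and without control replicate 1 (0.18). It was 0.11 to 0.18 with 1 control library left out. For shPU.1 replicate 2 it was 0.076 at a minimum score of 100, 0.25 with equal lengths and 0.084 without rank. Its interval excluded 0 with gaps of 20 kb (-0.15), 5 or more regions (-0.30) and trimmed peaks (-0.69), and in the other direction without control replicate 2 (0.19). It was -0.091 to 0.19 with 1 control library left out. In vitro the value was negative under all 16 alternatives (-0.79 to -0.28), and its interval reached 0 with trimmed peaks alone (-0.28). For chains from 1 control, the difference from the mean of the shPU.1 lists was -0.34 with trimmed peaks for control replicate 1 and 0.17 with equal lengths for control replicate 2. It was 0.56 to 0.65 and 0.29 to 0.56 with 1 shPU.1 library left out. The cause of these changes was not tested.

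With replicate number as a block, the mean log2 odds ratio over the shPU.1 lists was 0.01, against -0.02 without the block and -0.12 to 0.08 with 1 shPU.1 library left out. The log2 ratio of the share of peaks in dense spans, shPU.1 against control, was -0.25 with the block, against -0.24 without, -0.48 with equal lengths and -0.64 to -0.04 with 1 library left out. Control peaks set the spans in each of these, which raises the control share, so a negative sign throughout decides nothing. Unknown depth and 2 libraries a group limit what can be detected.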
